A study of Homo sapiens with 5 samples.

Results

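The genes described here encode protein kinase A, its inhibitor peptides and 1 anchoring protein, measured in D54 cells, an established human glioma line, with and without silencing of TIP-1. TIP-1, encoded by TAX1BP3, is a small adaptor with 1 PDZ domain and little else; such domains recognise the tails of partner proteins. The members are 10 of the 18417 genes that a row with 1 symbol names on the array: the inhibitors PKIA, PKIB and PKIG, the catalytic subunits PRKACA and PRKACB, the regulatory subunits PRKAR1A, PRKAR1B, PRKAR2A and PRKAR2B, and the anchoring protein AKAP12. Each has 1 row, so no choice between rows arose and no filter on low values removed any of them. PKIA was chosen because its signal was already known to be lower with TIP-1 shRNA, and the others because they belong to its pathway. The differences of the members between the groups are therefore given as a description, and no test is read from them. Their precision is stated by the SE and the interval of limma, which moderates the spread of each row by that of all rows. For variable genes such as PKIA this SE can be smaller than their own arrays alone would give.

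Total RNA from 5 cultures was hybridised, 1 array each: 2 control cultures transfected with a control shRNA, which were independent clones, and 3 cultures transfected with TIP-1 shRNA, each with a different hairpin. The design has no technical replicates and no untransfected cells, and whether each shRNA culture was 1 clone or a pool is not given in the sources used here. Cells were trypsinised, seeded and grown overnight before the RNA was taken. Signals are log2 values, in which 1 unit is a 2-fold difference, and array medians lay between 7.88 and 7.98. The silenced gene was read from a row with 2 symbols, its own and that of a read-through transcript, unlike the other rows used here. That row was lower in every TIP-1 shRNA array, at 9.81, 9.61 and 9.55 in shRNAs 1, 2 and 3 against 12.05 and 12.10 in controls 1 and 2. Among the markers of the labelled cell type, VIM (13.84 to 14.02), CD44 (13.73 to 13.80) and EGFR (11.12 to 11.30) were bright on all arrays. GFAP, NES, OLIG2, SOX2 and S100B lay near or below 8 (6.23 for S100B in shRNA 3 to 8.14 for GFAP in control 2), and the table has no detection call that could say whether they were absent. Markers of leucocytes, endothelium, epithelium and fibroblasts were measured for 9 genes. Of these, 1 was higher in all 3 shRNA arrays than in both controls, beside 12.5% of all genes, and 1 lower, beside 14.1%. Their summed linear signal was 1594 and 1310 in controls 1 and 2 and 1522, 1352 and 1183 in shRNAs 1, 2 and 3. The epithelial marker EPCAM has 2 rows, and only the brighter, itself dim, is given here. It read 6.75 in both controls, then 6.55, 6.22 and 5.88 in shRNAs 1, 2 and 3. The difference of that row was -0.53 (SE 0.19, limma adjusted p = 0.707), which is also the direction of PKIA. CDH1, the other epithelial marker, was higher (0.08, SE 0.08). The leucocyte marker PTPRC varied within both groups, from 7.32 to 8.65 in the controls and from 6.84 to 8.39 with TIP-1 shRNA. The part of these markers in the results was not tested.

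Protein kinase A is held inactive as a complex of regulatory and catalytic subunits. When cAMP binds the regulatory subunits, the catalytic subunits are freed and phosphorylate their targets, among them the transcription factor CREB. The PKI peptides bind free catalytic subunits as false substrates, block them and carry them out of the nucleus, and anchoring proteins hold the complex at particular places in the cell. In gliomas, raised cAMP is known for slowing growth and promoting a more differentiated form.

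The inhibitor PKIA, the form best known from muscle and brain, had the largest difference among the members. Its log2 signal was 7.46 in control 1 and 7.86 in control 2, compared with 6.63, 6.31 and 6.98 in shRNAs 1, 2 and 3. All 3 silenced arrays lay below both controls, and shRNA 2 was the lowest. The means were 7.66 ± 0.28 (SD, n = 2) and 6.64 ± 0.33 (SD, n = 3), a difference of -1.02 (SE 0.22, limma 95% interval -1.55 to -0.49), or 2.03-fold lower. Of all genes, 14 were at least 2-fold lower (0.076%), and PKIA was 1 of them, with 12 genes lower. The spread was wide on both sides: the controls differed by 0.40, a gap reached by 6.04% of genes, and the shRNA arrays ranged over 0.67. Leaving out 1 array at a time gave differences between -1.22 (without control 1) and -0.82 (without control 2). The signals of PKIA lay below the array medians on all 5 arrays. In a bulk sample, fewer cells with a transcript and less of it per cell cannot be told apart.

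The order of the hairpins for PKIA was not their order for TIP-1. Measured from the control mean, PKIA stood at -1.03 in shRNA 1, -1.35 in shRNA 2 and -0.68 in shRNA 3, whereas TAX1BP3 was lowest in shRNA 3. TAX1BP3 read 9.61 in shRNA 2 and 9.55 in shRNA 3, about as close as the controls at 12.05 and 12.10, so its order there is barely resolved. Each hairpin has 1 array, so neither order carries a test. A deviation as low as that of PKIA was found in 0.217% of genes in shRNA 1, in 0.0923% in shRNA 2 and in 0.489% in shRNA 3.

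**Figure D1:**
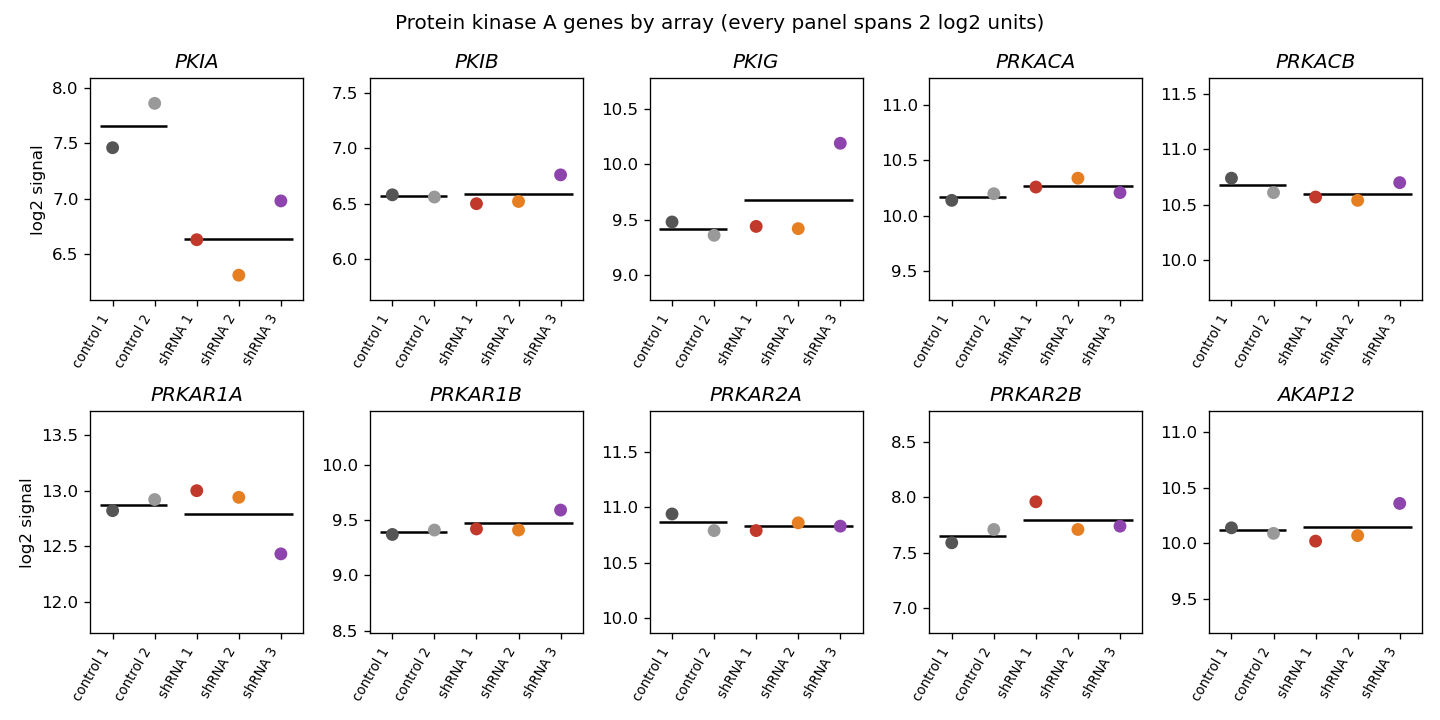
Log2 signal of each of the 10 genes (vertical axes, all spanning 2 log2 units) on the 2 control and 3 TIP-1 shRNA arrays (horizontal axes), with group means as bars. PKIA is separated between the groups by a gap from 6.98 in shRNA 3 to 7.46 in control 1. That gap is smaller than the range of 0.67 among its shRNA arrays. PKIG and PRKAR1A stand apart in shRNA 3 alone.

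The other inhibitors did not share this pattern. PKIB, a form that can also bind free catalytic subunits, read 6.58 and 6.56 in the controls, against 6.50, 6.52 and 6.76 with TIP-1 shRNA. Its groups overlapped, with shRNAs 1 and 2 just below the controls and shRNA 3 above (difference 0.03, SE 0.11). PKIG, a broadly expressed inhibitor, read 9.48 and 9.36 in the controls, against 9.44, 9.42 and 10.19 in shRNAs 1, 2 and 3. Its shRNAs 1 and 2 lay between the controls, and shRNA 3 alone was higher, by 0.77 above the control mean, so that its difference of 0.27 (SE 0.24) rested on that array. In shRNA 3, PKIG and PKIA thus lay on opposite sides of their control means, and 1.12% of genes deviated upward by as much as PKIG there. That array also had the widest deviations over all genes, with an SD of 0.27 against 0.19 in shRNA 1 and 0.21 in shRNA 2. The part of this wider spread in the PKIG value was not tested.

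The catalytic subunits, which carry the kinase activity, differed little. PRKACA, the main and widely expressed form, read 10.14 and 10.20 in the controls, against 10.26, 10.34 and 10.21 with TIP-1 shRNA. The shRNA arrays all lay above both controls, shRNA 3 only just (difference 0.10, SE 0.08, 95% interval -0.11 to 0.30). PRKACB, the second form and prominent in brain, read 10.74 and 10.61 in the controls, against 10.57, 10.54 and 10.70 with TIP-1 shRNA. Its groups overlapped through shRNA 3 (difference -0.07, SE 0.09).

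Among the regulatory subunits, PRKAR1A, the type I form whose loss frees the kinase in the inherited tumour syndrome Carney complex, read 12.82 and 12.92 in the controls. It read 13.00 and 12.94 in shRNAs 1 and 2, just above both controls, and 12.43 in shRNA 3, below both. The difference of -0.08 (SE 0.18) averaged opposite deviations of 0.13, 0.08 and -0.44, and 2.45% of genes deviated downward by as much in shRNA 3. PRKAR1B, the type I form of neurons, read 9.37 and 9.41 in the controls, close to 9.42 and 9.41 in shRNAs 1 and 2, and 9.59 in shRNA 3 (difference 0.08, SE 0.09). PRKAR2A, the broadly expressed type II form, had the narrowest range of the members, with 10.94 and 10.79 in the controls, against 10.79, 10.86 and 10.83 with TIP-1 shRNA (difference -0.04, SE 0.09). PRKAR2B, the type II form of brain and fat, read 7.59 and 7.71 in the controls, against 7.96, 7.71 and 7.74 with TIP-1 shRNA. Its groups were apart only by a hair, since control 2 and shRNA 2 were both 7.71 after rounding (difference 0.16, SE 0.11, 95% interval -0.11 to 0.42).

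AKAP12, also called gravin, a large scaffold that anchors type II protein kinase A with other kinases near the membrane, read 10.14 and 10.09 in the controls. It read 10.02 and 10.07 in shRNAs 1 and 2, below both controls, and 10.36 in shRNA 3, above both (difference 0.03, SE 0.12). Of the 9 members other than PKIA, 5 deviated most from their control mean in shRNA 3. That array had the widest deviations over all genes (SD 0.27, against 0.19 in shRNA 1 and 0.21 in shRNA 2). The share of all genes that deviated most there was not computed, so nothing is read from this count.

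**Figure D2:**
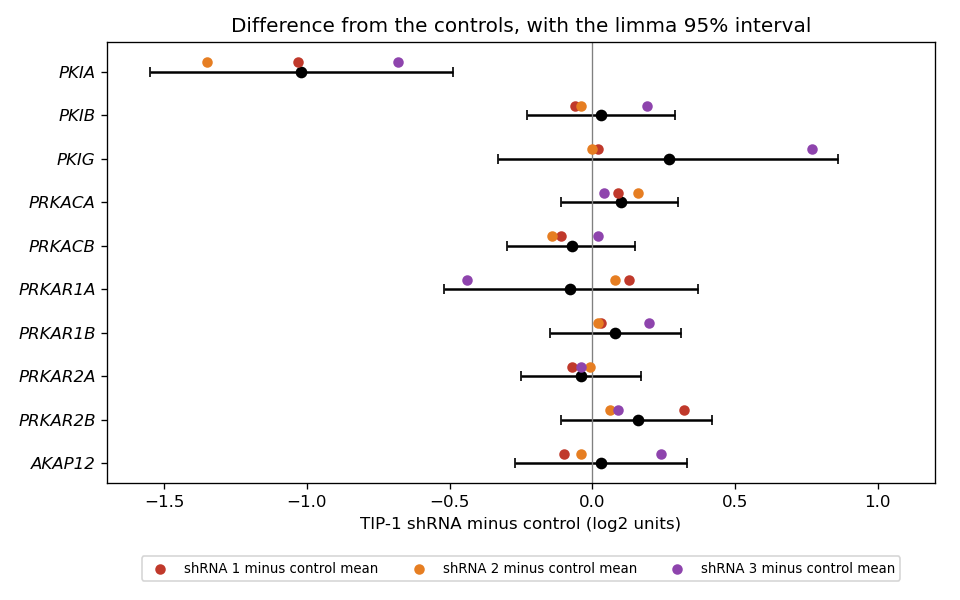
Difference between TIP-1 shRNA and control in log2 units (horizontal axis) for each gene (vertical axis), with the mean difference and its limma 95% interval in black and each shRNA array minus the control mean in colour. The 3 shRNA arrays of PKIA stand at -1.03, -1.35 and -0.68, and PKIG at 0.77 and PRKAR1A at -0.44 are the widest deviations of the other 9 genes, both in shRNA 3.

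PKIA was then set against the other 9 members within each array, by its deviation from the control mean minus the median of theirs. This came to -1.05, -1.35 and -0.77 in shRNAs 1, 2 and 3, and to -0.21 and 0.21 in controls 1 and 2. PKIA was the lowest of the 10 in all 3 silenced arrays, but also the lowest in control 1 and the highest in control 2, so it was the most variable member in the controls too. The difference of this measure between the groups was -1.06, almost that of PKIA itself, since the median deviation of the other 9 was 0.02, 0.00 and 0.09. The 6 subunits had differences between -0.08 and 0.16, against a median absolute difference of 0.09 over all genes.

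The fit over all rows called 1 row of 33297 (0.003%; limma, adjusted p under 0.05), the 2-symbol row of TAX1BP3, and 0 of the 10 members. That number was 0 without control 1, control 2 or shRNA 2, 2 without shRNA 1 and 6 without shRNA 3. The 3 shRNA arrays lay on 1 side of both controls for 3 of the 10 members, PKIA below and PRKACA and PRKAR2B above, beside 26.5% of all genes. PRKACA overlapped after quantile normalization, and PRKAR1B was also apart after median centring. That count depended on the arrays kept, as fewer arrays separate more easily: it was 5 of 10 without control 1 (57.9% of genes), 6 without control 2 (51% of genes) and 7 without shRNA 3 (43% of genes). Because PKIA was chosen on this contrast, nothing is read from these counts. The differences of PKIB, PRKAR1A, PRKAR2A and AKAP12, of at most 0.08 in size, changed sign under some alternatives (PRKAR2A to 0.02 with median centring), so they have no settled direction.

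**Figure D3:**
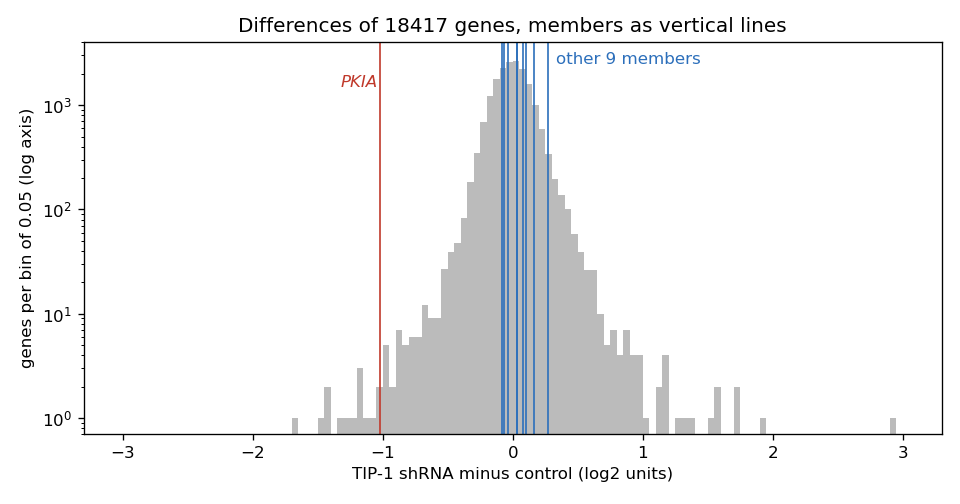
Number of genes (vertical axis, log scale) by difference between TIP-1 shRNA and control in log2 units (horizontal axis, bins of 0.05) for 18417 genes, with the members as vertical lines. PKIA at -1.02 lies in the sparse lower tail, and the other 9 members lie between -0.08 and 0.27.

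The rest of the pathway was followed through 118 further genes in 9 lists that run from receptors to CREB targets. These lists, like the members, were chosen with earlier results of these data known, so their counts are a description. None of the 118 genes passed over all rows (smallest limma adjusted p = 0.707). Before adjustment, 9 had p under 0.05, which is 7.63% of the lists' genes beside 6.02% of all genes. Of these, 2 were higher, beside 3.08% of all genes, and 7 lower, beside 2.94%. None differed by 2-fold, and the median difference was 0.00, beside -0.01 for all genes. The groups were apart for 16 genes above and 15 below, or 26.3%, which is near the 26.5% of all genes.

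Receptors that raise cAMP came first in the pathway. The median difference of the 23 measured was -0.06. At an unadjusted p under 0.05, 3 were lower, beside 2.94% of all genes, and none higher, beside 3.08%. These were the serotonin receptor HTR6 (-0.36, SE 0.11), the prostaglandin E2 receptor PTGER2 (-0.29, SE 0.09) and the prostacyclin receptor PTGIR (-0.29, SE 0.10), each at a limma adjusted p of 0.707. HTR6 read 8.03 and 8.22 in the controls, against 7.84, 7.79 and 7.65 with TIP-1 shRNA, so its groups did not overlap. PTGER2 read 7.04 and 7.16 against 6.74, 6.86 and 6.82, also without overlap. Genes of each list were named for the smallest p, so a lack of overlap in them partly follows from that choice. All 3 receptor rows lay near or below the array medians. The array medians themselves were slightly lower with TIP-1 shRNA, and the part of this in the receptor values was not tested beyond the alternatives with median centring and quantile normalization, in which all 3 stayed lower.

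The G protein alpha subunits, which pass the signal to adenylyl cyclase, had differences from -0.03 to 0.17 over 7 genes. The largest was that of GNAL, a stimulatory subunit of the olfactory system and striatum (limma adjusted p = 0.713). GNAI2, an inhibitory subunit, was bright in all 5 arrays, from 12.43 to 12.54, and did not pass (0.04, SE 0.08). GNAO1, an inhibitory subunit abundant in neurons, differed by 0.05 (SE 0.09).

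Of the 10 adenylyl cyclases, which make cAMP, 1 had an unadjusted p under 0.05, beside 6.02% of all genes. ADCY7 read 9.36 and 9.45 in the controls, against 9.18, 9.21 and 9.15 with TIP-1 shRNA, below both in each array (-0.22, SE 0.08, limma adjusted p = 0.707). ADCY3 was higher in all 3 arrays, at 10.82, 10.88 and 10.74 against 10.61 and 10.64 (0.19, SE 0.08, limma adjusted p = 0.707), and so was ADCY5 (0.18, SE 0.10). The list's median was 0.02. On the side of cAMP breakdown, 15 phosphodiesterases had a median of 0.00 and differences from -0.23 to 0.22. PDE8A, an enzyme with high affinity for cAMP, was the 1 with an unadjusted p under 0.05, again beside 6.02% of all genes. It read 10.03 and 9.97 in the controls, against 9.80, 9.74 and 9.77 with TIP-1 shRNA (-0.23, SE 0.08, limma adjusted p = 0.707). PDE4D differed by 0.14 (SE 0.08) and PDE7A by 0.22 (SE 0.15), and neither passed.

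Anchoring proteins other than AKAP12 were measured for 21 genes, of which 14 had a positive and 7 a negative difference (median 0.06). AKAP5, which anchors the kinase beside receptors and channels at synapses, read 6.45 and 6.40 in the controls, against 6.95, 6.76 and 6.96 with TIP-1 shRNA. Its groups did not overlap and the difference was 0.47 (SE 0.10, 95% interval 0.23 to 0.71, limma adjusted p = 0.707), on a row well below the array medians. AKAP11 differed by 0.41 (SE 0.18), but control 1 at 9.74 lay close to the shRNA arrays at 9.80 to 9.87 and control 2 at 9.10 far from them. AKAP4, an anchoring protein of the sperm tail, differed by -0.21 (SE 0.10). The difference of GSKIP, named after its values were seen, came from shRNA 3 alone, which read 7.74 where the other 4 arrays read 8.79 to 8.90. Among the 4 kinase relatives, the median was -0.07 and none had an unadjusted p under 0.05. PRKG1, the kinase of cyclic GMP, differed by -0.22 (SE 0.15), PRKACG, a catalytic gene of testis, by -0.12 (SE 0.12) and PRKG2 by -0.01 (SE 0.09).

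cAMP also acts on proteins other than the kinase. Of 10 such effectors, 2 had an unadjusted p under 0.05, both lower, beside 2.94% of all genes, and the median was -0.06. POPDC3, a membrane protein with a cAMP-binding domain, read 10.43 and 10.39 in the controls, against 10.00, 10.11 and 10.19 with TIP-1 shRNA (-0.31, SE 0.09, limma adjusted p = 0.707). RAPGEF3, known as EPAC1, which activates the small GTPase Rap on binding cAMP, read 8.28 and 8.43 against 8.20, 8.05 and 7.94 (-0.29, SE 0.11, limma adjusted p = 0.707). It has 2 rows, and only the brighter is given here. CNGB1, a channel subunit, differed by -0.19 (SE 0.09). In all 3 genes each shRNA array lay below both controls, which partly follows from naming them by small p.

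At the end of the pathway stand CREB and its targets. Of 7 factors and coactivators none had an unadjusted p under 0.05, and differences ran from -0.16 to 0.13. CRTC1, a coactivator that enters the nucleus on cAMP signals, read 9.78 in both controls and 10.00, 9.91 and 9.82 with TIP-1 shRNA (0.13, SE 0.09). CREM, a factor of the CREB family, differed by -0.16 (SE 0.19) and CRTC2 by 0.07 (SE 0.10). Of 21 textbook CREB targets, 1 had an unadjusted p under 0.05, beside 6.02% of all genes, and the median was 0.00. JUNB, an AP-1 factor that many other signals also induce, read 9.96 and 10.04 in the controls, against 10.18, 10.33 and 10.36 with TIP-1 shRNA (0.29, SE 0.09, limma adjusted p = 0.707). PENK, the precursor of enkephalins, differed by -0.24 (SE 0.14), and PPARGC1A, a coactivator of energy metabolism, by 0.27 (SE 0.18). PPARGC1A came to 0.13 without control 1, 0.41 without control 2 and 0.11 without shRNA 3, and CREM to -0.28, -0.03 and -0.34; CREM was also -0.07 without shRNA 1 and -0.06 without shRNA 2. Differences of the 21 targets ran from -0.24 to 0.29, 12 positive and 9 negative, and in 3 of them every shRNA array exceeded both controls: JUNB, PTGS2 (0.13, SE 0.09) and FOSB (0.11, SE 0.09), beside 12.5% of all genes. None had them all below, beside 14.1%. PTGS2 and FOSB were named after their values were seen. FOS, named after its values were seen, differed by 0.01 (SE 0.18), an average of opposite deviations of -0.09, -0.23 and 0.36 in shRNAs 1, 2 and 3.

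**Figure D4:**
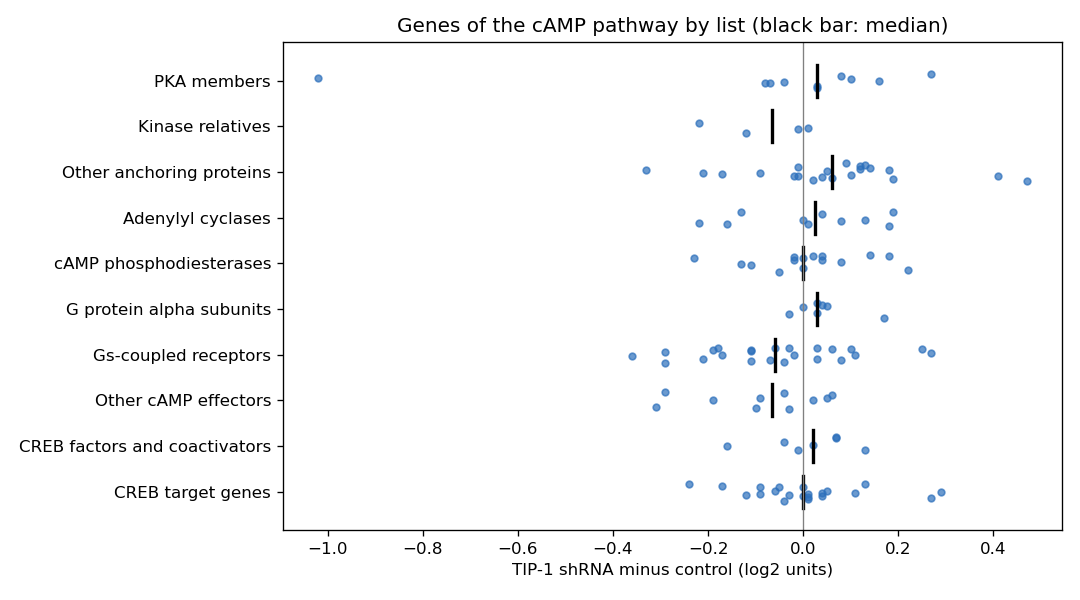
Difference between TIP-1 shRNA and control in log2 units (horizontal axis) for each gene of the members and of the 9 pathway lists (vertical axis), 1 point per gene, with medians as black bars. PKIA at -1.02 is the point farthest from 0, and no other gene shown lies beyond 0.47.

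CREB binds the cAMP response element, whose full form reads TGACGTCA on both strands and whose short form reads TGACG, or CGTCA on the other strand, and is contained in the full one. These letters were searched in start-site windows of RefSeq (GRCh38.p14), each from 250 bases before to 50 bases after an annotated start, with several windows for some genes. Windows were found for 9 of the 10 members (PKIA had none) and for 15 of the 21 CREB targets. The full letters stood in 4 of 21 windows of the targets (19%) and in 2 of 28 windows of the members (7.14%), beside 1.85% of all 35116 windows. Counted by gene, that is 4 of 15 targets and 1 of 9 members with windows, beside 614 of 27305 genes. The targets were listed as known CREB targets, so their shares of full and short letters partly follow from that choice. They also stood in 2 of 13 windows of the CREB factors and coactivators (15.4%, CREM), 1 of 18 of the G protein alpha subunits (5.56%, GNAO1) and 2 of 48 of the phosphodiesterases (4.17%, PDE4A and PDE7B), and in none of the other 5 lists. The short letters stood in 11 of the 28 windows of the members (39.3%, 6 genes) and 13 of the 21 of the targets (61.9%), beside 24.6% of all windows. The sites with the full letters are shown because CREB is known to act through this element, with the element in capitals, written 5′ to 3′ on the strand of the gene.
PRKAR1A, chr17:68512370-68512399, plus strand: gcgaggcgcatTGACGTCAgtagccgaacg
SST, chr3:187670423-187670452, minus strand: gcctcctagccTGACGTCAgagagagagtt
VGF, chr7:101165630-101165659, minus strand: tgaatgaacatTGACGTCAatggggcgggg
DUSP1, chr5:172771302-172771331, minus strand: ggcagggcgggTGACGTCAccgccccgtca
CGA, first copy, chr6:87095230-87095259, minus strand: taagatcaaatTGACGTCAtggtaaaaatt
CGA, second copy, chr6:87095212-87095241, minus strand: atggtaaaaatTGACGTCAtggtaattaca
CREM, chr10:35195841-35195870, plus strand: gagctgcacatTGACGTCAgctccgagtca
GNAO1, chr16:56191330-56191359, plus strand: cgcggccctgcTGACGTCAgctggcggccc
PDE4A, chr19:10416759-10416788, plus strand: cgtcagtccgcTGACGTCAcgccccaggag
PDE7B, chr6:135851535-135851564, plus strand: actaaacccttTGACGTCActcttgaaatg

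The PRKAR1A site lies in the overlapping windows of both matching starts, so the 2 member windows hold the same letters. The targets with these sites did not pass the test, nor did CREM, GNAO1, PDE4A (0.04, SE 0.10) or PDE7B (0.04, SE 0.13). Somatostatin, SST, differed by 0.00 (SE 0.12), the neuropeptide precursor VGF by 0.00 (SE 0.11), and the hormone chain CGA by -0.05 (SE 0.13). DUSP1, a phosphatase that switches off MAP kinases, read 12.16 and 12.50 in the controls, against 12.44, 12.36 and 12.32 with TIP-1 shRNA (0.05, SE 0.12), all 3 between the controls. A match of letters describes the window and does not show that the site is used.

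The genes whose profiles over the 5 arrays came closest to PKIA, by the root mean square difference of their values minus the control mean, were PDCD1LG2 (0.117), POLR3G (0.119), STEAP2 (0.147), ROR1 (0.214) and ITGB3 (0.232). PDCD1LG2 encodes the checkpoint ligand PD-L2 and read 9.70 and 10.14 in the controls, against 9.13, 8.57 and 9.13 with TIP-1 shRNA. POLR3G, a subunit of RNA polymerase III, read 9.84 and 10.28 against 9.06, 8.96 and 9.48. STEAP2, a metalloreductase, read 8.09 and 8.41 against 7.29, 7.22 and 7.57. In each of the 5, as in PKIA, control 2 was above control 1 and shRNA 2 was the lowest array. They were chosen for likeness to PKIA over these same arrays, so that shared order follows largely from the choice. Their differences, from -0.98 for PDCD1LG2 to -0.81 for the integrin chain ITGB3, are likewise a description. The groups of ITGB3 overlapped, with 8.82 in shRNA 3 against 8.80 in control 1. ROR1 deviated from its control mean by only -0.26 in shRNA 3. Of the other members, PRKACB came closest, at 0.768, and PKIG was the farthest, at 1.02.

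The nearest measured genes on the chromosome differed from PKIA in direction, size or both. PKIA was chosen with its difference known, and only 0.163% of all genes had an absolute difference as large. Most genes would therefore differ from it in size, and nothing is read from that here. By gene order in RefSeq, PEX2, ZFHX4 and HNF4G lie before PKIA and ZC2HC1A, IL7 and STMN2 after it. Genes without a row of 1 symbol were passed over, 5 between PKIA and PEX2 and 1 between PKIA and ZC2HC1A. None passed the test. ZC2HC1A, the nearest of those after PKIA, differed in the opposite direction, at 9.32 and 9.43 in the controls, against 9.70, 9.81 and 9.67 with TIP-1 shRNA (0.35, SE 0.09, 95% interval 0.14 to 0.57, limma adjusted p = 0.707). The zinc finger homeobox factor ZFHX4 had the same order of arrays within each group as PKIA, at smaller size. It deviated from its control mean by -0.15 and 0.15 in the controls and by -0.26, -0.52 and 0.04 in shRNAs 1, 2 and 3, so its groups overlapped (difference -0.25, SE 0.18). PEX2, needed to build peroxisomes, differed by 0.18 (SE 0.15). HNF4G, IL7 and STMN2 differed by 0.05, 0.01 and 0.05, with signs that changed under alternatives.

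**Figure D5:**
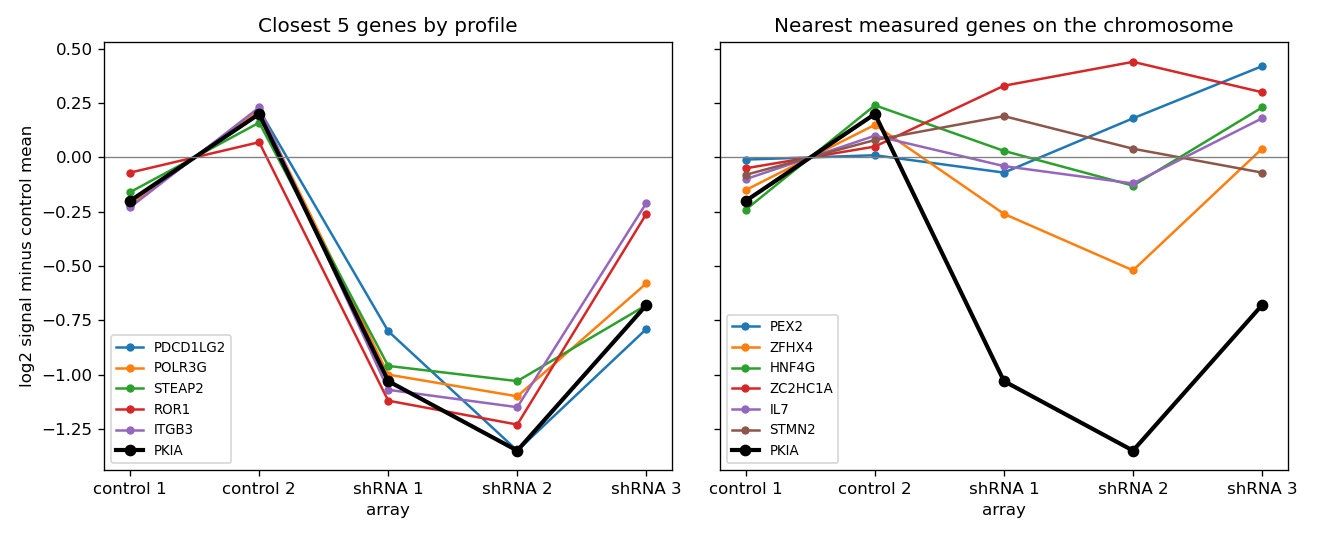
Log2 signal minus the control mean (vertical axes) on each array (horizontal axes) for PKIA in black, with the 5 genes closest to it in profile on the left and its nearest measured neighbours on the right; lines only join points of 1 gene. PKIA deviates by -1.03, -1.35 and -0.68 in shRNAs 1, 2 and 3, where its neighbour ZC2HC1A deviates by 0.33, 0.44 and 0.30.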

How the data were processed

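The deposited values are log2 signals, 1 per array row, which the authors made with the Affymetrix Exon Array Computational Tool, per the series' design text; the sources used here do not give its version, background correction, normalization or genome build. The values, from 3.27 to 14.69, were used as deposited. The row identifiers matched the annotation of a gene-level array, so 19460 of 33297 rows had 1 symbol, 1754 several and 12083 none, and the brightest row stood for each gene. Differences, TIP-1 shRNA minus control shRNA, were fitted over all rows by limma (version 3.58.1, under R 4.3.3) through lmFit and eBayes (two-sided test, Benjamini-Hochberg over all rows, threshold 0.05). The p-values measure the spread between 2 clones and 3 hairpins, and the number of arrays limits the precision. The fit was tested on simulated data.

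The members and lists were chosen with earlier results of these data known. Of 130 listed pathway symbols, 12 had no row with 1 symbol and were not analysed here. Beside the members, the text names the 3 genes of each pathway list with the smallest unadjusted p. It also names the 5 genes closest to PKIA in profile and its 3 nearest measured genes on each side. The silenced gene, the cell type markers and the genes with the full cAMP response element are named for those reasons, and others are marked. Alternatives were quantile normalization, median centring, bright rows only, a trended robust fit, array weights, the replicate number as a block, the mean of a gene's rows, and leaving out each array.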

Additional observations from a re-analysis of the deposited data

How the results depend on the processing

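PKIA was lower with TIP-1 shRNA under every alternative that gave it a value, between -1.22 and -0.82 when 1 array was left out, -0.95 with quantile normalization and -1.19 with the replicate block; bright rows only left it out, with 7 of 10 members kept. PKIA minus the median of the other 9 members ran from -1.25 to -0.84 when 1 array was left out. Past the threshold lay 1 row, but 2 with array weights, 15 with the replicate block and 0 to 6 when 1 array was left out. That block leaves shRNA 3 without a partner. Deviations of same-numbered arrays correlated across rows at only 0.0486 (number 1) and -0.0529 (number 2), and no pairing was assumed. Members with groups apart numbered 3 of 10, beside 26.5% of all genes. Among bright rows only the number was 1 of 7, by the loss of the dim members, and no share of genes is given for that setting. It was 3 without shRNA 1 (41.7% of genes) and 4 without shRNA 2 (33.6%). Without control 1 it was 5 (57.9%), without control 2 it was 6 (51%) and without shRNA 3 it was 7 (43%). Small differences changed sign: PRKG2 came to 0.00 with quantile normalization, 0.05 with median centring and -0.06 to 0.03 when 1 array was left out. HNF4G came to -0.05 and IL7 to -0.07 with array weights, to -0.05 and -0.08 with the block, and to -0.19 to 0.28 and -0.09 to 0.10 when 1 array was left out. In the same way STMN2 ran from -0.03 to 0.14 and GNAI2 from -0.01 to 0.10, and GNAI2 was -0.05 with the mean of its rows. The cause was not tested. Of 542 values of the 47 other named genes, 522 kept direction and side of the threshold or stayed within the spread between arrays. The 47 genes include the other 9 members. Most of the 11 sign changes in 4 of those members are among the 522, whereas sign changes of 5 other genes were counted as reversed. The 522 is thus not a count of values that kept their sign.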
